A study of Homo sapiens with 9 samples.

Results

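Matrix metalloproteinases, ADAM sheddases, the urokinase plasminogen activator with its receptor, and tissue inhibitors of metalloproteinases were examined in A549 cells given apoptotic vesicles. The 9 genes, of 62257 gene rows measured, were MMP1, MMP2, MMP14, ADAM10, ADAM17, PLAU, PLAUR, TIMP1 and TIMP2. They were chosen by name for their known roles, with earlier results of these data known. A549 cells are an established epithelial line derived from a human lung adenocarcinoma, and their RNA was sequenced after 96 h of treatment. In the first group (called sts, 3 libraries) the cells received extracellular vesicles from apoptosis induced by staurosporine, a broad kinase inhibitor. In the second (ddp, 3 libraries) cisplatin, which crosslinks DNA strands, had been used to induce the apoptosis that gave the vesicles, and in the third (control, 3 libraries) the cells received phosphate-buffered saline. The labels do not say which cells released the vesicles, nor whether each library stands for its own culture, so p-values measure the spread between libraries, which may be technical. No cells given either drug alone, and no vesicles from cells that were not dying, were analysed here. In RNA from whole cultures, fewer cells of a kind and less RNA per cell cannot be told apart.

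Matrix metalloproteinases are zinc enzymes that cut collagens and other matrix proteins, and the tissue inhibitors (TIMPs) block their active site. Urokinase, the product of PLAU, binds its receptor PLAUR on the cell surface and turns plasminogen into plasmin, a serine protease that digests fibrin and activates several metalloproteinases. ADAM10 and ADAM17 are membrane-bound metalloproteases that release the outer parts of surface proteins such as growth factors and adhesion molecules, and all of these systems are studied in lung adenocarcinoma for their part in invasion.

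Promoter sequence of PLAUR, PLAU and TIMP1 is shown because these 3 genes were the ones called higher in sts cells than in control, in ddp cells than in control, and in sts cells than in ddp cells. That of MMP14 is shown as 1 of 2 genes called lower in ddp cells than in control. The other, ADAM10, also had a promoter window, but its sequence is not shown. Stretches were taken from the 250 bases before a RefSeq transcript start (GRCh38.p14), 5′ to 3′ on the gene's strand, with matches to TGANTCA (the AP-1 element) or GGGCGG (the GC box, also sought as its reverse complement CCGCCC) in capitals. For TIMP1 and MMP14 the stretch is the part before any exon of the GENCODE annotation. For PLAUR and PLAU, where an exon of a longer transcript or of an antisense gene covers the window, it is 30 bases around a motif. They lie at chr19:43670338-43670367 on the minus strand (PLAUR), chr10:73911077-73911106 on the plus strand (PLAU, the downstream of its RefSeq starts), chrX:47582186-47582312 on the plus strand (TIMP1) and chr14:22836335-22836556 on the plus strand (MMP14).
PLAUR: atcacaactccaTGAGTCAgggccgagcca
PLAU: ggagGGGCGGcgccgGGGCGGgccctgata
TIMP1: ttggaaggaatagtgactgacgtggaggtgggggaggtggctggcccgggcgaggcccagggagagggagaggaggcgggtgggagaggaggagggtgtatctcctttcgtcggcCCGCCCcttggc
MMP14: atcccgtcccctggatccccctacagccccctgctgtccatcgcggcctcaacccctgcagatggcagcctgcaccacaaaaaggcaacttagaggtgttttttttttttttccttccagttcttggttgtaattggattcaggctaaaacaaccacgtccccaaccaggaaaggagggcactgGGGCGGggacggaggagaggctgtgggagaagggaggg
TGANTCA reads the same on both strands, and the motifs do not overlap each other in these windows. The whole PLAUR window held 1 TGANTCA match, TGAGTCA with its first base at position −186 from the start, and no GC box. PLAU had GC boxes at −66, −51 and −40, TIMP1 at −135 and −45 and MMP14 at −66, and none of these 3 windows held TGANTCA. Among 35114 RefSeq promoter windows of this length, 6.57% held TGANTCA and 42.6% held the GC box. Of the 9 genes, 6 had RefSeq promoter entries, in 7 windows because PLAU has an upstream start as well. TGANTCA occurred in 1 of the 7 and the GC box in 5. ADAM17, called in no comparison, had GC boxes at −236, −122 and −71, and ADAM10 had 1 at −193. The upstream PLAU window held neither motif. The motifs were chosen after the tests were seen, and nothing is drawn from them. MMP1, MMP2 and TIMP2 had no entry.

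Total counts per library ran from 13799950 to 14816996 in sts cells, from 15949255 to 16526399 in ddp cells and from 14356195 to 15492993 in control. The summed level of 5 epithelial markers (EPCAM, KRT7, KRT8, KRT18 and CDH1, of which KRT8 gave 56.0% of the sum) was 7152 to 8577 CPM (counts scaled to a common library total) in sts cells, 6826 to 7407 CPM in ddp cells and 11111 to 12142 CPM in control. Marker sums of other cell types were low. The 6 leukocyte markers summed to 20.5 to 25.8 CPM in sts cells, 14.2 to 15.8 CPM in ddp cells and 10.7 to 16.4 CPM in control, of which the monocyte gene CD14 gave 71.4%. Sums of 7 fibroblast markers were 3.11 to 3.99 CPM in sts cells, 2.06 to 2.57 CPM in ddp cells and 2.65 to 3.49 CPM in control, and sums of 5 endothelial markers were 2.49 to 4.42 CPM, 1.63 to 1.82 CPM and 1.78 to 2.07 CPM in the same groups. The 5 alveolar type 2 cell markers summed to 2.14 to 2.56 CPM in sts cells, 0.690 to 2.10 CPM in ddp cells and 1.303 to 2.26 CPM in control, with SFTPA1 at 0 in every library. The lower epithelial sum in both vesicle groups did not hold for each marker. KRT7 averaged 711 CPM in sts cells, 1285 CPM in ddp cells and 1155 CPM in control. The endothelial sum, with PECAM1 as its largest marker, was higher in all sts libraries than in any ddp or control library. This too did not hold for each marker. PECAM1 had 1.97 to 3.37 CPM in sts libraries, 0.254 to 0.686 CPM in ddp libraries and 0.0649 to 0.277 CPM in control. CDH5 averaged 0.927 CPM in sts cells and 1.28 CPM in control. CLDN5 and KDR also averaged lower in sts cells than in control, and VWF was slightly higher at a very low level. The epithelial sum, the PECAM1-led endothelial sum and the CD14-led sum, also higher in sts cells, moved with the results that follow. The part of these sums in the results was not tested.

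PLAU, PLAUR and TIMP1 were higher in both vesicle groups than in control and highest in sts cells, ADAM10 was lower in both vesicle groups, MMP2 was higher in sts cells than in either other group, TIMP2 was higher in sts cells than in control, and MMP14 was lower in ddp cells than in control. ADAM17 did not pass the test in any comparison. MMP1 was counted in sts libraries alone. A gene was called changed when its adjusted p (edgeR's quasi-likelihood test, Benjamini-Hochberg adjustment over 16947 genes) was under 0.05, and fold changes are given as log2 with a standard error (SE). Of the 9 genes, 8 passed the filter on low counts, and MMP1 did not.

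Between sts cells and control 6 of the 9 genes were called, 5 higher (MMP2, PLAU, PLAUR, TIMP1 and TIMP2) and 1 lower (ADAM10), while 32.8% of all tested genes were called, 15.9% higher and 16.8% lower. The median log2 fold change of the 8 tested genes was 0.49, against 0.01 over all tested genes. Between ddp cells and control 5 were called, 3 higher (PLAU, PLAUR and TIMP1) and 2 lower (MMP14 and ADAM10), where 15.5% of all genes were called, 7.16% higher and 8.32% lower. The median there was 0.16, against −0.0033 over all genes. Between sts and ddp cells 4 were called, all of them higher (MMP2, PLAU, PLAUR and TIMP1), and the other 4 tested did not pass, where 39.7% of all genes were called, 20.2% higher and 19.5% lower, with a median of 0.33 against 0.03. Apart from MMP1, the libraries of sts cells and control did not overlap for 6 of these genes, where 43.3% of all tested genes did not overlap. The count was 5 between ddp cells and control, against 32.2% of all genes, and 5 between sts and ddp cells, against 47.5%. Both vesicle comparisons use the same control libraries and are not independent of each other. Because the 9 genes were chosen with earlier results of these data known, their counts and medians are a description beside those of all genes.

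**Figure D1:**
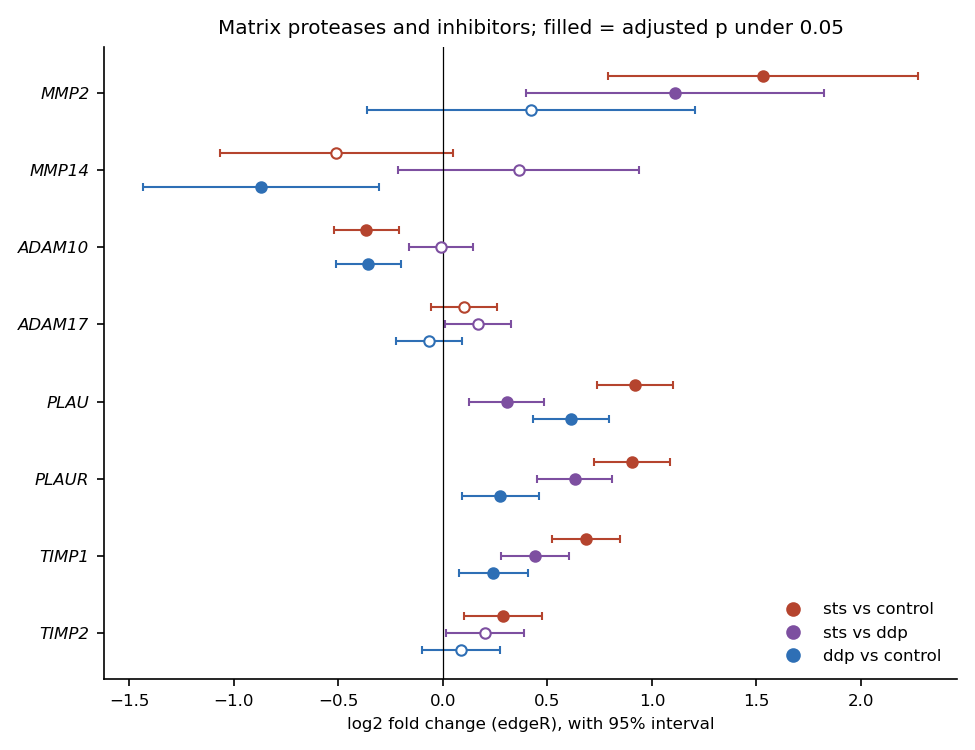
Log2 fold change (x axis, edgeR, with 95% interval) of the 8 tested genes in the 3 comparisons; filled points have an adjusted p under 0.05. PLAU, PLAUR and TIMP1 lie right of 0 in all 3 comparisons, and ADAM10 lies left of 0 in both vesicle groups against control, at −0.37 in sts cells and −0.36 in ddp cells.

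PLAU (ENSG00000122861, chr10:73909177-73917496, plus strand, hg38) encodes urokinase. Its level was 104, 102 and 111 CPM in the 3 sts libraries, 89.0, 92.7 and 74.4 CPM in the ddp libraries and 61.6, 49.3 and 56.5 CPM in control. The groups did not overlap, with every sts library above every ddp library and every ddp library above every control library. The log2 fold change was 0.92 between sts cells and control (SE 0.0900, adjusted p = 8.03e-10), a 1.89-fold rise, and 0.61 between ddp cells and control (SE 0.0900, adjusted p = 5.66e-06), a 1.53-fold rise. Between sts and ddp cells it was 0.31 (SE 0.0879, adjusted p = 0.00550), a call that was lost without ddp replicate 3, the lowest ddp library (adjusted p = 0.0775). That call was also lost with limma on log2(FPKM + 1) without a filter (adjusted p = 0.146). The antisense gene C10orf55 overlaps PLAU and had 11 to 30 counts per library, and without stated strandedness reads of overlapping genes cannot be told apart.

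PLAUR (ENSG00000011422, chr19:43646095-43670547, minus strand) encodes the urokinase receptor, which is held in the outer membrane by a lipid anchor. It had 65.8, 67.5 and 64.4 CPM in sts libraries, 44.9, 42.3 and 40.4 CPM in ddp libraries and 35.4, 31.1 and 39.0 CPM in control. The sts libraries stood well apart, whereas the lowest ddp library was just above the highest control library. PLAUR rose 1.87-fold in sts cells over control (log2 fold change 0.91, SE 0.0893, adjusted p = 8.83e-10) and 1.55-fold in sts over ddp cells (0.63, SE 0.0877, adjusted p = 5.21e-07). The rise in ddp cells over control was 1.21-fold (0.27, SE 0.0903, adjusted p = 0.0340). It no longer passed without control replicate 1 (adjusted p = 0.0782) or 2 (0.219), without ddp replicate 1 (0.152) or 2 (0.0701), and under the no-filter, unscaled-total and limma settings.

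TIMP1 (ENSG00000102265, chrX:47582408-47586789, plus strand) encodes a secreted inhibitor of most soluble metalloproteinases. Its level was 145, 178 and 156 CPM in sts libraries, 121, 119 and 112 CPM in ddp libraries and 96.9, 94.6 and 106 CPM in control. No sts library overlapped a ddp library, and no ddp library a control library. TIMP1 rose 1.61-fold in sts cells over control (log2 fold change 0.69, SE 0.0807, adjusted p = 3.57e-08) and 1.36-fold in sts over ddp cells (0.44, SE 0.0801, adjusted p = 3.46e-05). The rise in ddp cells over control was 1.18-fold (0.24, SE 0.0808, adjusted p = 0.0374). It was lost without control replicate 1 (adjusted p = 0.126) or 2 (0.153), without ddp replicate 1 (0.138) or 2 (0.101), and with no filter or limma.

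TIMP2 (ENSG00000035862, chr17:78852977-78925387, minus strand) encodes the inhibitor that also joins MMP14 at the cell surface in the complex that activates pro-MMP2. It had 74.2, 74.4 and 68.1 CPM in sts libraries, 60.0, 71.9 and 56.5 CPM in ddp libraries and 64.9, 53.0 and 59.5 CPM in control. All sts libraries were above all control libraries, while ddp replicate 2 lay among the sts libraries. TIMP2 was 1.22-fold higher in sts cells than in control (log2 fold change 0.29, SE 0.0915, adjusted p = 0.0141), which no longer passed without control replicate 2 (adjusted p = 0.143) or sts replicate 1 (0.0695) and with limma on FPKM. In ddp cells against control it did not pass (log2 fold change 0.09, 95% interval −0.10 to 0.27, adjusted p = 0.594), nor between sts and ddp cells (0.20, adjusted p = 0.0786). It passed between sts and ddp cells with upper-quartile scaling (0.0357) or without ddp replicate 2 (0.0166).

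**Figure D2:**
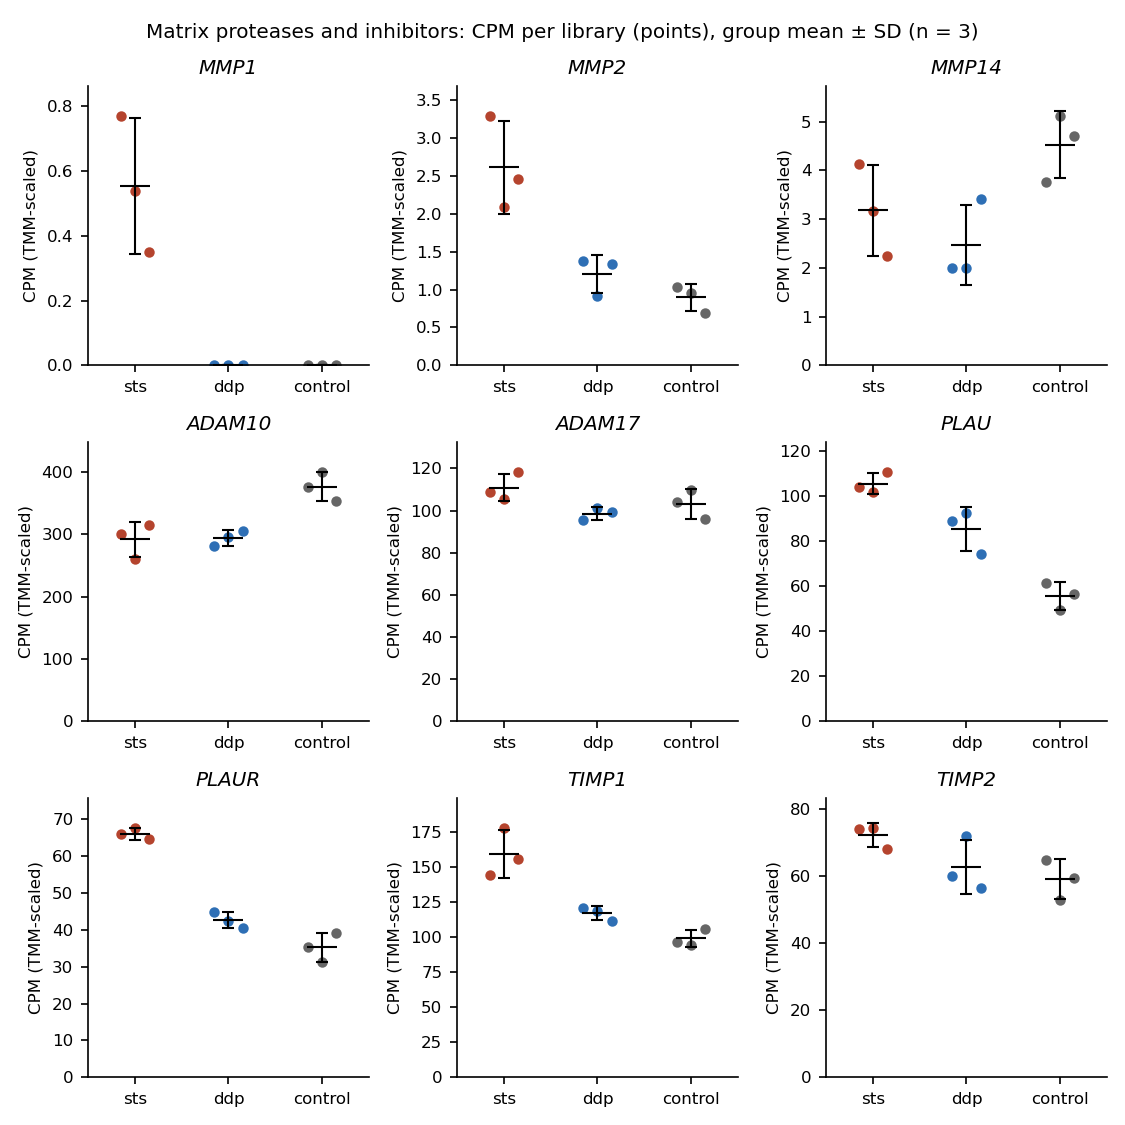
CPM (y axis, TMM-scaled, from 0) of the 9 genes in each library (points), with the group mean ± SD (n = 3); groups run sts, ddp, control. PLAUR lies between 64.4 and 67.5 CPM in sts libraries, above all ddp and control libraries, and MMP1 has reads in the sts libraries alone.

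MMP1 (ENSG00000196611, chr11:102789401-102798160, minus strand) encodes interstitial collagenase, which cuts fibrillar collagens. The sts libraries held 11, 8 and 5 of its reads (0.770, 0.538 and 0.351 CPM), and the 3 ddp and 3 control libraries held 0. With the 24 sts reads taken as counted and a floor of 3 counts set for the other group, sts cells were 8.20-fold above control. Against ddp cells the value was 8.90-fold. Counting error of the sts reads is not included, so neither value is a lower bound. With 3 libraries against 3, the two-sided exact permutation test gave p = 0.1 in both comparisons, the smallest it can give. When no filter was applied and 37966 genes were tested, edgeR's adjusted p was 0.00256 between sts cells and control and 0.00157 between sts and ddp cells. The overlapping antisense pseudogene WTAPP1 had 3 counts summed over sts libraries, 5 over ddp libraries and 8 over control libraries. MMP1 thus rested on 24 reads in all, and in ddp and control cells it was not detectable at this depth.

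MMP2 (ENSG00000087245, chr16:55389700-55506691, plus strand) encodes gelatinase A, which cuts denatured collagen and basement membrane collagen. It had 47, 31 and 35 counts in sts libraries, 22, 15 and 21 in ddp libraries and 16, 14 and 10 in control. As CPM these were 3.29, 2.09 and 2.46 CPM in sts libraries, 1.37, 0.912 and 1.33 CPM in ddp libraries and 1.04, 0.955 and 0.693 CPM in control. All sts libraries were above all others, and ddp and control libraries overlapped. MMP2 was 2.89-fold higher in sts cells than in control (log2 fold change 1.53, SE 0.365, adjusted p = 0.00125) and 2.16-fold higher than in ddp cells (1.11, SE 0.349, adjusted p = 0.0110). The call between sts and ddp cells was lost without ddp replicate 2 (adjusted p = 0.0592) or sts replicate 1 (0.0804). It was also lost with limma on log2(FPKM + 1) without a filter (adjusted p = 0.0896). In ddp cells against control the log2 fold change was 0.42 (95% interval −0.36 to 1.21, adjusted p = 0.530).

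MMP14 (ENSG00000157227, chr14:22836560-22849041, plus strand) encodes MT1-MMP, a membrane-anchored collagenase that activates pro-MMP2. Its counts were 59, 47 and 32 in sts libraries, 32, 33 and 54 in ddp libraries and 58, 75 and 68 in control. Its level was 4.13, 3.16 and 2.25 CPM in sts libraries, 2.00, 2.01 and 3.42 CPM in ddp libraries and 3.77, 5.12 and 4.71 CPM in control. The control libraries were all above the ddp libraries, and the sts libraries overlapped both groups. MMP14 was 1.83-fold lower in ddp cells than in control (log2 fold change −0.87, SE 0.277, adjusted p = 0.0281). It no longer passed without control replicate 2 (adjusted p = 0.106) or 3 (0.0764), without ddp replicate 1 (0.127) or 2 (0.113), and with DESeq2 (0.0568). Nor did it pass with limma on log2(FPKM + 1) without a filter (adjusted p = 0.272). In sts cells against control MMP14 did not pass (−0.51, 95% interval −1.07 to 0.05, adjusted p = 0.159), nor between sts and ddp cells (0.36, adjusted p = 0.334).

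ADAM10 (ENSG00000137845, chr15:58588809-58749791, minus strand) encodes the sheddase that makes the ligand-triggered cut of Notch receptors. It had 300.0, 261 and 315 CPM in sts libraries, 281, 296 and 305 CPM in ddp libraries and 375, 399.9 and 353 CPM in control. Every library of both vesicle groups was below every control library, and the vesicle groups overlapped. ADAM10 fell 1.29-fold in sts cells against control (log2 fold change −0.37, SE 0.0756, adjusted p = 2.67e-04) and 1.28-fold in ddp cells against control (−0.36, SE 0.0755, adjusted p = 9.04e-04). The call in ddp cells was lost with limma on log2(FPKM + 1) without a filter (adjusted p = 0.0995). Between sts and ddp cells the log2 difference was −0.01, with a 95% interval of −0.16 to 0.14 (adjusted p = 0.932).

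ADAM17 (ENSG00000151694, chr2:9488486-9556732, minus strand) encodes the enzyme that releases TNF and several EGF receptor ligands. Its level was 109, 106 and 118 CPM in sts libraries, 95.3, 101 and 99.3 CPM in ddp libraries and 104, 109.9 and 95.8 CPM in control. The control libraries overlapped both vesicle groups, and the sts libraries were all above the ddp libraries. It did not pass in sts cells against control (log2 fold change 0.10, 95% interval −0.05 to 0.26, adjusted p = 0.335) or in ddp cells against control (−0.07, interval −0.22 to 0.09, adjusted p = 0.636). In sts against ddp cells it was 0.17 (adjusted p = 0.0801), which passed with upper-quartile scaling (0.0340) or unscaled totals (0.0401). IAH1, on the opposite strand, overlaps the end of ADAM17 and had 1027 to 1380 counts per library.

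Levels between genes are compared in FPKM, which divides the fragments of a gene by its length and by the library size. In sts cells the order of mean FPKM was TIMP1 (108), PLAU (35.2), ADAM10 (17.9), PLAUR (14.5), TIMP2 (12.6), ADAM17 (10.2), MMP14 (0.675), MMP2 (0.544) and MMP1 (0.198), and only MMP14 and MMP2 overlapped as neighbours. In ddp cells it was TIMP1 (81.0), PLAU (28.9), ADAM10 (18.4), TIMP2 (11.1), PLAUR (9.52), ADAM17 (9.17), MMP14 (0.534), MMP2 (0.256) and MMP1 (0), with overlap between TIMP2 and PLAUR and between PLAUR and ADAM17. In control it was TIMP1 (68.1), ADAM10 (23.4), PLAU (18.8), TIMP2 (10.4), ADAM17 (9.56), PLAUR (7.83), MMP14 (0.973), MMP2 (0.189) and MMP1 (0), with overlap between TIMP2 and ADAM17. TIMP1 led in every group, and the matrix metalloproteinases of the list (MMP14, MMP2 and MMP1) were the lowest in every group. PLAU stood above ADAM10 in both vesicle groups and below it in control, without overlap in any group, and PLAUR stood above ADAM17 in sts cells and below it in control. The order of PLAU and ADAM10 depends on the gene lengths, 2949 bases for PLAU and 15979 bases for ADAM10. As CPM, which is not divided by length, ADAM10 was above PLAU in every library.

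**Figure D3:**
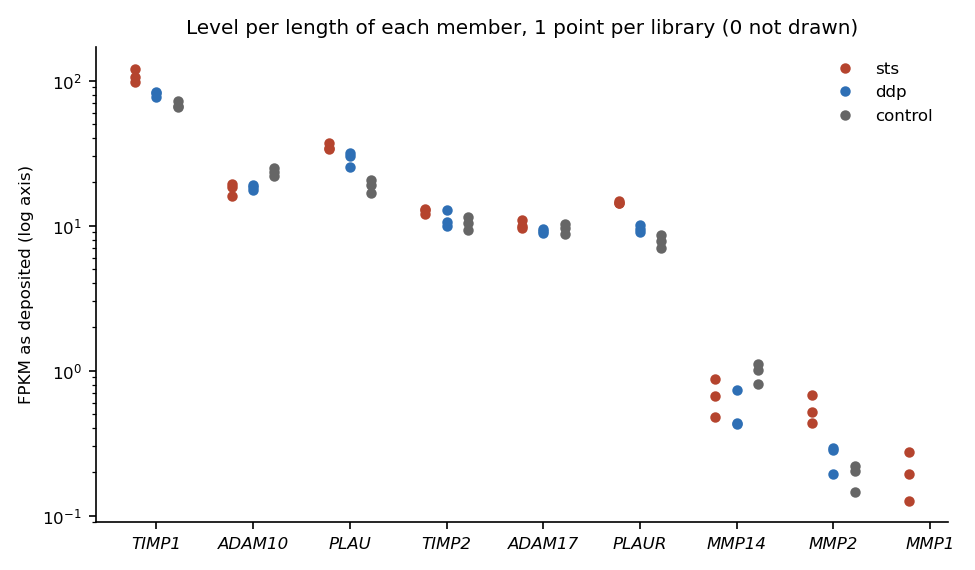
FPKM as deposited (y axis, log scale, zeros not drawn) of each of the 9 genes, 1 point per library, with sts, ddp and control side by side; genes run from the highest to the lowest mean in control. TIMP1 is the highest gene in every library, and MMP14, MMP2 and MMP1 lie far below the others.

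Ratios of FPKM set a protease beside an inhibitor or receptor within a library, as a description without a test. The ratio of PLAU to PLAUR averaged 2.42 ± 0.163 in sts cells, 3.03 ± 0.267 in ddp cells and 2.41 ± 0.221 in control (SD, n = 3 each). The ratios of sts and control libraries overlapped, and the ddp libraries were above both. MMP14 to TIMP2 was 0.0533 ± 0.0139 in sts cells, 0.0494 ± 0.0213 in ddp cells and 0.0950 ± 0.0236 in control (SD, n = 3 each). The ddp and control libraries overlapped, with 0.0738 in ddp replicate 3 and 0.0707 in control replicate 1. The sts libraries were all below control, the highest at 0.0678. MMP1 to TIMP1 was 0.00281, 0.00160 and 0.00119 in the sts libraries and 0 elsewhere.

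Among 13 other genes of the plasminogen system, of which 9 were tested, 3 rose and 2 fell in sts cells against control (median log2 fold change 0.10), 3 rose and 2 fell in ddp cells against control (0.22), and 4 rose and 4 fell between sts and ddp cells (−0.16). SERPINE2, which encodes protease nexin 1, a urokinase inhibitor, averaged 225 ± 0.649 CPM in sts cells, 149 ± 14.5 CPM in ddp cells and 88.4 ± 7.82 CPM in control (SD, n = 3 each). It was higher in sts cells than in control (log2 fold change 1.35, adjusted p = 9.30e-15), in ddp cells than in control (0.76, adjusted p = 1.47e-08) and in sts than in ddp cells (0.59, adjusted p = 2.33e-07).

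VTN, the gene of vitronectin, a matrix protein that the urokinase receptor binds, averaged 29.1 ± 1.02 CPM in sts cells, 8.24 ± 0.871 CPM in ddp cells and 12.5 ± 0.589 CPM in control (SD, n = 3 each). It rose in sts cells (log2 fold change 1.22, adjusted p = 8.42e-10) and fell in ddp cells (−0.60, adjusted p = 0.00104) against control, and it was 3.52-fold higher in sts than in ddp cells. VTN thus moved in opposite directions in the vesicle groups, and its libraries did not overlap between any groups. LRP1, the gene of a receptor that takes up complexes of proteases with their inhibitors, averaged 23.9 ± 3.98 CPM in sts cells, 10.9 ± 1.61 CPM in ddp cells and 8.94 ± 2.02 CPM in control (SD, n = 3 each), a log2 fold change of 1.42 in sts cells against control (adjusted p = 7.94e-08) and of 1.13 against ddp cells (adjusted p = 1.50e-06). PLAT, the tissue-type plasminogen activator, had 4.76, 2.89 and 4.35 CPM in sts libraries, 7.11, 6.20 and 5.96 CPM in ddp libraries and 3.70, 3.96 and 3.53 CPM in control. It was 1.72-fold higher in ddp cells than in control (adjusted p = 0.0121), which no longer passed without control replicate 3 (0.0521) or ddp replicate 1 (0.0658).

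**Figure D4:**
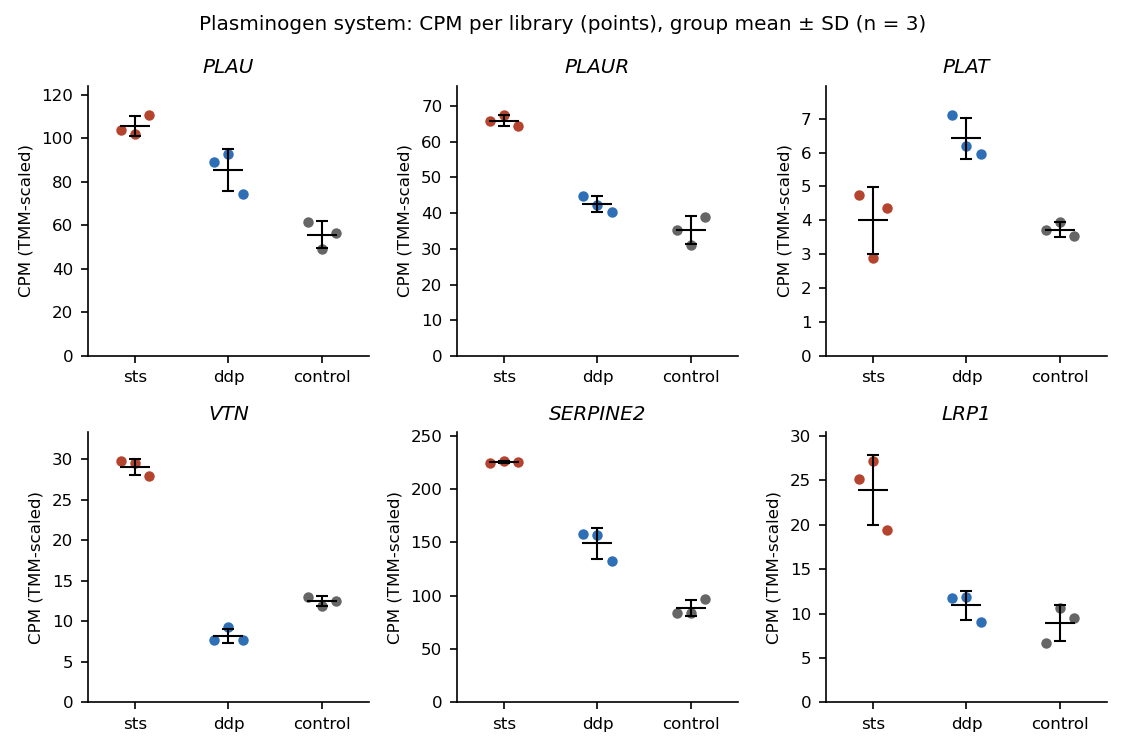
CPM (y axis, TMM-scaled, from 0) of PLAU, PLAUR and 4 other plasminogen system genes in each library (points), with the group mean ± SD (n = 3); groups run sts, ddp, control. VTN is highest in sts cells and lowest in ddp cells, with means of 29.1 and 8.24 CPM, while SERPINE2 is above control in both.

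Of 20 other matrix metalloproteinase genes 6 were tested, and MMP8, MMP11, MMP20 and MMP27 had 0 counts in every library. In sts cells against control 1 rose and 2 fell (median log2 fold change −0.14), in ddp cells against control 1 fell and the other 5 did not pass (0.17), and between sts and ddp cells 2 rose and 2 fell (−0.21). MMP7, the gene of matrilysin, was the one that fell in ddp cells. It had 191, 207 and 218 CPM in sts libraries, 86.2, 77.8 and 96.1 CPM in ddp libraries and 278, 269.6 and 298 CPM in control, with no overlap between groups. MMP7 was 3.25-fold lower in ddp cells than in control (log2 fold change −1.70, SE 0.0809, adjusted p = 8.51e-17), 1.37-fold lower in sts cells than in control (−0.45, adjusted p = 2.27e-05) and 2.37-fold higher in sts than in ddp cells (1.25, adjusted p = 5.33e-14). MMP24, a membrane-type enzyme, averaged 18.2 ± 2.28 CPM in sts cells, 28.8 ± 1.39 CPM in ddp cells and 30.9 ± 3.21 CPM in control (SD, n = 3 each), and fell in sts cells against control (−0.76, adjusted p = 1.56e-06). MMP17, a lipid-anchored membrane type, rose in sts cells against control (0.70, adjusted p = 0.00417). In sts against ddp cells, MMP17 (0.47, adjusted p = 0.0430) and MMP15 (−0.54, adjusted p = 0.0310) passed. MMP17 was lost without control replicate 1, ddp replicate 2 or 3, or sts replicate 1 or 2 (adjusted p 0.0563 to 0.172), and MMP15 without ddp replicate 2 or any sts replicate (0.0508 to 0.394).

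Of 6 further protease inhibitors 3 were tested, and 1 of them passed in no comparison. TIMP4 had the same order of groups as TIMP1, with 22.4 ± 1.39 CPM in sts cells, 13.0 ± 0.726 CPM in ddp cells and 9.57 ± 1.07 CPM in control (SD, n = 3 each). It rose 2.34-fold in sts cells against control (log2 fold change 1.22, adjusted p = 3.58e-09) and 1.36-fold in ddp cells against control (0.44, adjusted p = 0.0176), the second call being lost without control replicate 2 (0.118) or ddp replicate 2 (0.0736). TFPI2, the gene of a Kunitz-type inhibitor of plasmin and other serine proteases, ran the other way, with 348 ± 18.5 CPM in sts cells, 440.4 ± 19.3 CPM in ddp cells and 579 ± 20.4 CPM in control (SD, n = 3 each). It fell in sts cells (−0.73, adjusted p = 4.45e-10) and in ddp cells (−0.40, adjusted p = 8.49e-05) against control.

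Among 11 other ADAM genes, 6 of them tested, 3 rose and 1 fell in sts cells against control (median log2 fold change 0.45), 1 rose and 1 fell in ddp cells against control (−0.20), and 3 rose and 1 fell between sts and ddp cells (0.27). ADAM19 averaged 3.76 ± 0.558 CPM in sts cells, 7.40 ± 0.377 CPM in ddp cells and 2.01 ± 0.676 CPM in control (SD, n = 3 each). It was highest in ddp cells, at 3.66-fold control (log2 fold change 1.87, adjusted p = 7.13e-07), and its rise in sts cells (0.90, adjusted p = 0.00626) was lost without control replicate 3 (0.0587). ADAM9, like ADAM10, fell in sts cells against control (−0.37, adjusted p = 3.73e-04), and its fall in ddp cells (−0.27, adjusted p = 0.0164) was lost without control replicate 1 or 2 or ddp replicate 1 or 2 (0.0712 to 0.131). ADAM15 rose in sts cells against control (0.49, adjusted p = 1.77e-05), as did ADAM8 (0.41, adjusted p = 0.0314), whose call was lost without control replicate 1 (0.123) or 2 (0.110) or sts replicate 1 (0.263). ADAM28 was higher in sts than in ddp cells (1.84, adjusted p = 0.00407). Its counts were low, at 15 to 33 in sts libraries and 2 to 12 in ddp libraries. The call was lost with limma on log2(FPKM + 1) without a filter (adjusted p = 0.195).

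Of 19 ADAMTS genes, secreted relatives that cut proteoglycans and procollagens, 6 were tested, and 1 rose and 4 fell in sts cells against control (median log2 fold change −0.89). ADAMTS10, which is known for its part in fibrillin microfibrils, averaged 73.8 ± 6.05 CPM in sts cells, 25.1 ± 1.96 CPM in ddp cells and 33.3 ± 3.65 CPM in control (SD, n = 3 each), a 2.22-fold rise in sts cells against control (adjusted p = 1.32e-11). The genes that fell in sts cells had low levels. They included ADAMTS15 (−1.47, adjusted p = 0.00149), ADAMTS9 (−1.06, adjusted p = 0.00699, and 0.0657 without sts replicate 2) and ADAMTS16 (−1.54, adjusted p = 0.0174, but 0.147 without control replicate 1 and 0.0893 without sts replicate 2). In ddp cells against control 1 rose and 1 fell (−0.33), ADAMTS12 (0.71, adjusted p = 0.0298) and ADAMTS10 (−0.41, adjusted p = 0.00353), and both calls were lost without control replicate 3 (0.176 for ADAMTS12 and 0.0532 for ADAMTS10), and that of ADAMTS12 also without ddp replicate 2 (0.0570) or 3 (0.117). Between sts and ddp cells 2 rose and 2 fell (median −0.50): ADAMTS10 (1.55), ADAMTS7 (0.46, adjusted p = 0.0220, lost without ddp replicate 1, ddp replicate 3 or sts replicate 1 at 0.0528 to 0.0938), ADAMTS12 (−1.42) and ADAMTS16 (−2.11).

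All 9 partners that carry ADAM10 or ADAM17 to the cell surface were tested, and 3 rose and 3 fell in sts cells against control, 2 and 2 in ddp cells against control, and 4 and 4 between sts and ddp cells. Their median log2 fold changes were 0.0019, −0.01 and 0.19 in these comparisons. TSPAN14, a tetraspanin partner of ADAM10, averaged 105 ± 10.5 CPM in sts cells, 170.0 ± 3.51 CPM in ddp cells and 125 ± 8.96 CPM in control (SD, n = 3 each). It rose in ddp cells against control (log2 fold change 0.44, adjusted p = 1.08e-04) and was 1.61-fold lower in sts than in ddp cells (adjusted p = 1.53e-08), although ADAM10 itself fell in both groups against control. Its lower level in sts cells than in control (−0.25, adjusted p = 0.0147) was lost without control replicate 1 (0.0897) or sts replicate 1 (0.0877). FRMD8, which stabilises the iRhom and ADAM17 complex, averaged 55.0 ± 0.136 CPM in sts cells, 29.0 ± 5.10 CPM in ddp cells and 36.3 ± 3.82 CPM in control (SD, n = 3 each) and rose in sts cells against control (0.60, adjusted p = 3.12e-05). Its fall in ddp cells against control (−0.32, adjusted p = 0.0359) was lost without control replicate 1 or 3, ddp replicate 1 or 3, or sts replicate 1 or 3 (0.0502 to 0.264). RHBDF2, the gene of iRhom2, was higher in ddp cells than in control (0.47, adjusted p = 0.00294) and lower in sts than in ddp cells (−0.47, adjusted p = 0.00104). Further calls were TSPAN33 (−0.79, adjusted p = 0.00153) and TSPAN10 (0.85, adjusted p = 0.0141, but 0.0576 without control replicate 2 and 0.0689 without sts replicate 1) in sts cells against control, RHBDF1 in ddp cells against control (−0.37, adjusted p = 0.0140, but 0.0582 without control replicate 2 and 0.0597 without ddp replicate 3) and TSPAN5 between sts and ddp cells (−0.65, adjusted p = 2.45e-05).

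Of 13 genes listed as proprotein convertases, membrane serine proteases and their inhibitors, with HGFAC and BSG added, 6 were tested, BSG among them. In sts cells against control 2 rose and 0 fell (median log2 fold change 0.09). In ddp cells against control 0 rose and 2 fell (−0.05), and between sts and ddp cells 3 rose and 0 fell (0.15). FURIN, which cleaves the proforms of MMP14, ADAM10 and ADAM17, averaged 39.7 ± 0.835 CPM in sts cells, 24.7 ± 3.71 CPM in ddp cells and 20.4 ± 3.25 CPM in control (SD, n = 3 each), 1.95-fold higher in sts cells than in control (adjusted p = 3.86e-08). PCSK5, a related convertase, averaged 3.89 ± 1.09 CPM in sts cells, 0.581 ± 0.103 CPM in ddp cells and 1.31 ± 0.407 CPM in control (SD, n = 3 each), 2.97-fold higher in sts cells than in control (adjusted p = 3.51e-04). Its fall in ddp cells against control (log2 fold change −1.16, adjusted p = 0.0436) was lost without control replicate 2, sts replicate 1 or any ddp replicate (0.0538 to 0.226). SPINT2, an inhibitor of membrane serine proteases, fell in ddp cells against control (−0.29, adjusted p = 0.00670), which was lost without control replicate 1 (0.0577) or ddp replicate 3 (0.0728). The genes higher in sts than in ddp cells were PCSK5 (2.73, adjusted p = 2.85e-07), FURIN (0.68, adjusted p = 7.73e-06) and SPINT2 (0.20, adjusted p = 0.0372). That SPINT2 call was lost without any control replicate, ddp replicate 1 or 3, or sts replicate 1 or 2 (0.0535 to 0.245).

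Of 22 surface proteins known to be shed by ADAM10 or ADAM17, 19 were tested, and 6 rose and 5 fell in sts cells against control (median log2 fold change −0.06), 4 rose and 2 fell in ddp cells against control (0.09), and 5 rose and 6 fell between sts and ddp cells (−0.11). CD44, the hyaluronan receptor, averaged 481 ± 2.27 CPM in sts cells, 522 ± 49.7 CPM in ddp cells and 342 ± 1.05 CPM in control (SD, n = 3 each), and the heparan sulfate proteoglycan SDC4 averaged 64.8 ± 4.98 CPM, 58.4 ± 5.02 CPM and 38.7 ± 2.84 CPM in the same groups. Both rose in sts cells against control (CD44 0.49, adjusted p = 1.70e-06; SDC4 0.74, adjusted p = 6.03e-08) and in ddp cells against control (CD44 0.61, adjusted p = 1.05e-07; SDC4 0.59, adjusted p = 9.15e-06). The EGF receptor ligands moved both ways. AREG fell in sts cells (−0.85, adjusted p = 3.14e-07) and EREG rose in ddp cells (0.83, adjusted p = 9.75e-05) against control. Of the other ligands in the list, named after their values were seen, BTC (1.17, adjusted p = 4.08e-05) and EGF (1.23, adjusted p = 0.00460) rose in sts cells against control. TGFA was lower there (−0.25, adjusted p = 0.0406), a call that failed without control replicate 1 (0.0693), control replicate 3 (0.0899) or sts replicate 2 (0.213). The remaining tests of these ligands and of HBEGF against control did not pass. L1CAM, a cell adhesion molecule, rose 3.41-fold in sts cells against control (adjusted p = 3.87e-06), ALCAM, another, fell both in sts cells (−0.35, adjusted p = 3.45e-04) and in ddp cells (−0.45, adjusted p = 3.71e-05) against control, and IL6R was 2.05-fold higher in sts than in ddp cells (adjusted p = 7.02e-08).

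**Figure D5:**
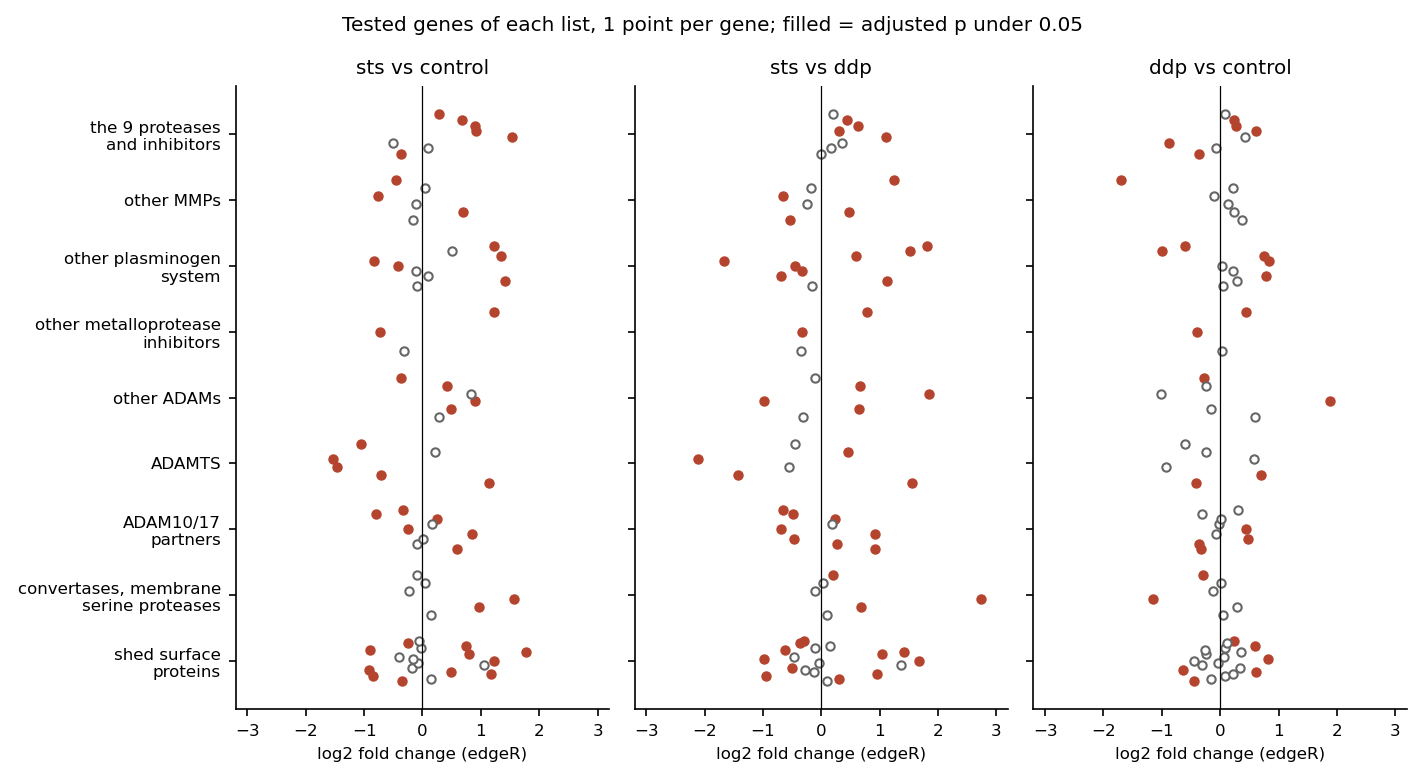
Log2 fold change (x axis, edgeR) of each tested gene of the 9 lists, 1 point per gene and 1 panel per comparison; filled points have an adjusted p under 0.05. Within most lists points lie on both sides of 0. Between sts and ddp cells the 9 proteases and inhibitors have no filled point left of 0, and neither does the list with the convertases.

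Genes whose pattern over the 9 libraries was most like each of the 7 called genes were found among 12730 candidates as the smallest root mean square difference of centred log2 CPM. The nearest to PLAU were AKR1B1 (0.104), TNIP1 (0.105) and RAI14 (0.108). For PLAUR they were ZFP36L1 (0.0841), H2BC21 (0.0964) and EEF2 (0.0965), and for TIMP1 they were EEF2 (0.0779), SERTAD1 (0.0839) and IRF1 (0.0844). EEF2, an elongation factor gene, was near both PLAUR and TIMP1, which at 0.126 were also the closest pair among the genes of the list. TIMP2 was nearest to EGFL7 (0.0538), TSKU (0.0573) and HK1 (0.0653), and ADAM10 to ZC3H7A (0.0387), PLS1 (0.0483) and TMEM65 (0.0492). The low-count genes had more distant neighbours, RAET1E (0.176), NLRC5 (0.213) and XDH (0.217) for MMP2, and PCDHA4 (0.213), KCNQ1OT1 (0.214) and GFOD1 (0.218) for MMP14. MMP2 and MMP14 were the pair farthest apart, at 0.861.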

How the data were processed

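Per the labels' protocols, TRIzol was used to extract A549 RNA and a NEBNext Ultra kit to prepare libraries, and strandedness is not given. The authors deposited raw read counts per gene and FPKM values for the same 9 libraries. The submitters' processing notes name featureCounts 1.5.0-p3, HISAT2 2.0.5, StringTie 1.3.3b and the build hg38, with no roles. Of the rows, 61552 carry Ensembl IDs and 61399 matched a symbol.

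From the counts, edgeR's quasi-likelihood test (robust, TMM scaling, default expression filter; edgeR 4.0.16, R 4.3.3) was fitted to all 9 libraries without covariates, and a Benjamini-Hochberg adjusted p under 0.05 over 16947 genes was the call. The SE is the log2 fold change divided by the square root of F. CPM of genes uses TMM-scaled totals, and marker sums use unscaled totals. The biological coefficient of variation was 0.0992. Likeness used genes with a mean log2 CPM (prior count 2) of at least 1. Replicates differed by more than sampling noise (chi-square per degree of freedom 4.89 to 7.39). Intervals cover 95%, and floors of 3 counts cover only counting error, and only that of the groups without reads.

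The rule for names took all 9 genes, up to 4 called genes of smallest p per other list and comparison, and the 3 genes most like each called gene. Of the other plasminogen system genes, 1 that the rule took is counted but not reported here. The 9 genes and the lists were chosen with earlier results of these data known. The ratio, level and likeness values are descriptions. Alternatives were median-of-ratios, upper-quartile and unscaled totals, no filter, a filter of 1 CPM in 3 libraries, a replicate block, limma 3.58.1 on log2(FPKM + 1) or log2(FPKM + 0.1) for genes whose FPKM averaged 1 or more, the first of these without that filter, DESeq2 1.42.0, the 6 compared libraries alone, and each library left out. The scripts were tested on simulated data.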

Additional observations from a re-analysis of the deposited data

How the results depend on the processing

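Of 468 alternative values of the tested proteases and inhibitors, 423 kept their direction and their side of the threshold, 36 no longer passed it, 4 newly passed it and 5 changed sign. The changes of sign were small values that never passed the test. ADAM10 between sts and ddp cells, at −0.01, became 0.0209 with upper-quartile scaling and 0.0135 with unscaled totals, and ran from −0.0707 to 0.0648 when 1 library was left out, above 0 without ddp replicate 3 or sts replicate 2. TIMP2 between ddp cells and control, at 0.09, ran from −0.0210 to 0.161 when 1 library was left out, below 0 without ddp replicate 2. The count of called genes among the 9 between ddp cells and control, 5, was 3 with no filter, 2 with limma on log2(FPKM + 1), 2 with limma on log2(FPKM + 0.1) and 1 with limma on log2(FPKM + 1) without a filter. Between sts cells and control, 6 in number, it ran from 4 (limma on FPKM with the filter) to 7 (no filter), and between sts and ddp cells, 4 in number, from 3 (limma on FPKM) to 6 (upper-quartile scaling). Leaving out 1 library at a time gave 2 to 5 between ddp cells and control, 5 to 6 between sts cells and control, and 3 to 4 between sts and ddp cells. Over all genes, limma on log2(FPKM + 1) called 1617 between ddp cells and control, on log2(FPKM + 0.1) 1638, and without a filter 787, against 2623. Limma without a filter called 3312 between sts cells and control, against 5552, and 4352 between sts and ddp cells, against 6721. Leaving out 1 library gave 1841 to 2830, 4621 to 5639 and 5856 to 6754 calls in these comparisons. Leaving out 1 library leaves fewer samples, the limma settings test fewer or other genes on another scale, and the cause was not tested otherwise. On the log2(FPKM + 1) scale without a filter, which understates changes of low genes, MMP2 between sts cells and control was 0.37, against 1.53, and MMP14 between ddp cells and control was −0.37, against −0.87. Depth limits MMP1, MMP2 and MMP14, which had at most 75 counts in any library.

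Libraries with the same number did not deviate together over all tested genes (correlations −0.0847 to 0.0547 over 9 pairs, against −0.0474 to 0.0564 over 18 pairs of other numbers). These values show no sign that the numbers pair samples. They cannot exclude a pairing or shared batch, because they weigh all tested genes alike, those of low counts included. With a replicate block, 3 of the 9 genes were called between ddp cells and control, where PLAUR (adjusted p = 0.0502) and TIMP1 (0.0599) were no longer called, while the counts of called genes among all genes tested changed by less than 1.5 times in each comparison.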
